A study of Mus musculus with 2 samples.

Results

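The 34 genes described here are transcripts that dividing cells make in 2 stages, 14 of S phase and 20 of G2 and mitosis, and all 34 of the listed symbols were found among the 32286 features of both count matrices. They were read in 6533 of 6863 barcodes of a library called pulse and 9247 of 10423 barcodes of a library called trace, the cells in which 500 or more genes were detected and mitochondrial UMIs made up 10% or less (unique molecular identifiers, which count captured RNA molecules). Both libraries came from Procr-CreER;tdTomato mice, in which tamoxifen at 4 weeks of age lets Cre turn on the red reporter in cells that express Procr at that time and in their descendants. Sorted knee cartilage cells that were tdTomato+ and CD45-, Ter119-, CD31- and DAPI- were taken 2 days (pulse) or 4 weeks (trace) after tamoxifen, with 3 mice pooled per library. There was 1 library per group, so no difference between the libraries could be tested across animals. Xist, an RNA made from the inactive X chromosome of females, stood at 0.236 CPM (counts per 1000000 UMIs) in superficial cells of pulse and 356 CPM in trace, and the Y-linked gene Ddx3y at 202 and 0.285 CPM. Chase time, the mice's age, their sex and the library cannot be told apart. The labelled protocol names periosteum cells beside cartilage cells. The intervals given below cover counting error only. Those of levels and ratios treat UMIs as independent, so they are too narrow where few cells hold many of the UMIs.

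S phase is the stage in which a cell copies its DNA, and G2 and mitosis are the stages in which it prepares to divide and separates the copies. Transcripts of the replication machinery rise before and during S phase, largely under E2F factors bound to DNA elements rich in G and C. Transcripts of the mitotic machinery rise later, largely under the MuvB complex with B-MYB and FOXM1, which reads the cell cycle homology region (CHR), often beside CCAAT boxes bound by NF-Y. In young joints, chondrocytes of the deeper zones of articular cartilage and of the growth plate divide, whereas superficial chondrocytes are known to divide slowly.

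The promoters of the members show both kinds of element, and 6 are printed here because they carry the letters by which the S and the G2/M genes of this set differ. RefSeq promoter sequences of the build GRCm38.p6, each 300 bases long and reaching from 250 bases before the start of transcription to 50 bases after it, were found for 29 of the 34 members. The sequences run 5′ to 3′ on the gene's strand, and capitals mark matches, on either strand, to the E2F words TTTGGCGC, TTTCCCGC, TTTGCCGC or TTTCGCGC, to the CHR word TTTGAA and to the word CCAAT.
Mcm3 promoter, chr1:20820263-20820562, minus strand: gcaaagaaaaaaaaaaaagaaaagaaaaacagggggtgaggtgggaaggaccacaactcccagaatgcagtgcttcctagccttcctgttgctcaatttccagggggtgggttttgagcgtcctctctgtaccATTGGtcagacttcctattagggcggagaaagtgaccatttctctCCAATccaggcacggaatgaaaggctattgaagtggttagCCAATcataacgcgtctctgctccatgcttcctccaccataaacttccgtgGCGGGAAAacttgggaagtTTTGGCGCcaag
Mcm6 promoter, chr1:128359656-128359955, minus strand: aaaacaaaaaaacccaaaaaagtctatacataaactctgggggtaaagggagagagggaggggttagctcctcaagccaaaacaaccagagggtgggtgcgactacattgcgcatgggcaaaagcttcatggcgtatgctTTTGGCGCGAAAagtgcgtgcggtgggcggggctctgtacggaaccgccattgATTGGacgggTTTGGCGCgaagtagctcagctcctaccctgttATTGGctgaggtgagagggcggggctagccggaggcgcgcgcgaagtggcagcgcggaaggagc
Ccnb2 promoter, chr9:70421505-70421804, minus strand: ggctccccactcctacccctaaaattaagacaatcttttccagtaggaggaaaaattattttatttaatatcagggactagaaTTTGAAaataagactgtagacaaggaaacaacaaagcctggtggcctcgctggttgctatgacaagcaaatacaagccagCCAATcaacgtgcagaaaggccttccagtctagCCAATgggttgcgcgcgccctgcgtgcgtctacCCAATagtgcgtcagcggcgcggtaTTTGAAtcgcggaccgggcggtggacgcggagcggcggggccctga
Cdc20 promoter, chr4:118437294-118437593, minus strand: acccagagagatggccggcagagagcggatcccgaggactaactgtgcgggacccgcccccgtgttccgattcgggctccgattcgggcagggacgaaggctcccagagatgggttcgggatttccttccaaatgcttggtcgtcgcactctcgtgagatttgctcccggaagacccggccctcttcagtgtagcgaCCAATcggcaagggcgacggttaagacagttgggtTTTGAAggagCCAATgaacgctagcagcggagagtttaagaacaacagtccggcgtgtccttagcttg
Top2a promoter, chr11:99024140-99024439, minus strand: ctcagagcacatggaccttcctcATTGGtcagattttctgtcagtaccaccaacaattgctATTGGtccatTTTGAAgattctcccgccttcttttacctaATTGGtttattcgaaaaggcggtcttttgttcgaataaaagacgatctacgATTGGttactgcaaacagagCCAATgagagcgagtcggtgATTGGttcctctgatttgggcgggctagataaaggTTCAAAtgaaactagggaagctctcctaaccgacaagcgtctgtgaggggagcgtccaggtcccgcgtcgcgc
Hmgb2 promoter, chr8:57511593-57511892, plus strand: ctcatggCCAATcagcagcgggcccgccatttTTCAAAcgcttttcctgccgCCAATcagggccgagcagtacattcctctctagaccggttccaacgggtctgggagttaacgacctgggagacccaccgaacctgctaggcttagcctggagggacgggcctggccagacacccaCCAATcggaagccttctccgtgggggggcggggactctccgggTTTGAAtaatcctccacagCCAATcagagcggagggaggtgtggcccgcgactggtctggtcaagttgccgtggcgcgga

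In the Mcm3 and Mcm6 promoters, those of helicase subunits, the capitals are E2F words and CCAAT, with no CHR. The 2 E2F words of Mcm6 that overlap read as 1 run of capitals. In the Ccnb2 promoter 3 CCAAT words stand before a CHR, and the Cdc20 promoter holds a CHR between 2 CCAAT words. An E2F word was found in 6 of the 12 S promoters at hand (50%: Mcm3, Mcm5, Mcm6, Mcm7, Cdc6 and Uhrf1), in 1 of 17 G2/M promoters (5.88%: Cdk1) and in 2.61% of the promoters of all 27025 genes in the table. The CHR word was found in 12 of 17 G2/M promoters (70.6%), in 1 of 12 S promoters (8.33%: Mcm2) and in 20.2% of all genes. Each of those 12 G2/M promoters also held CCAAT, a pair present in 7.97% of all genes. CCAAT by itself hardly differed between the lists. It was found in 10 of 12 S promoters (83.3%), 15 of 17 G2/M promoters (88.2%) and 41.1% of all genes. The G2/M promoters without the CHR word were those of Nusap1, Bub1, Cenpe, Birc5 and Ccnb1. A match is a string of letters and no measurement of binding.

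Cell types were set by marker gates. Each cell went to the type for which the largest part of a list of known markers was detected, above a minimum number of marker UMIs, and cells that reached no minimum were left ungated. Chondrocytes of the superficial zone, whose markers include the lubricin gene Prg4, made up 3987 pulse and 5172 trace cells. Deeper-zone chondrocytes, whose markers include the matrilin genes Matn1 and Matn3 and the collagen IX genes, made up 1135 pulse cells (17.4% of the library) and 265 trace cells (2.87%). In the deeper gate, the summed deeper-zone markers had a median of 208 UMIs per 10000 in pulse and 153 in trace cells, and the superficial markers 12.1 and 25. The edge between the zones was not sharp. In the deeper gate 250 pulse cells (22.0%) and 37 trace cells (14%) had the sums of both zones within 2-fold, and 366 of the pulse cells (32.2%) and 28 of the trace cells (10.6%) lay in clusters named superficial by their markers. A further 2 pulse and 12 trace cells lay in the osteoblast cluster, so the gate was spread differently over clusters in the libraries that are compared. Blood and vessel cells were also present although the sort aimed to remove CD45+, Ter119+ and CD31+ cells: 252 neutrophil, 168 B lineage, 19 erythroid and 264 endothelial cells in trace, against 3, 0, 0 and 40 in pulse. Trace cells were also read more deeply, with a median of 3645 UMIs per kept cell against 2837 in pulse and 40284041 against 23306063 UMIs in all, so shares of cells were read after thinning each cell to 2000 UMIs. That left 4765 pulse and 7226 trace cells, and 16 barcodes occurred in both libraries.

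In the pulse library, cells rich in cycle transcripts were found mainly in the deeper-zone gate. At matched depth 120 of 1036 deeper-zone pulse cells (11.6%, exact binomial 95% interval 9.70 to 13.7) carried 5 or more UMIs of the 34 genes. In the trace library 4 of 240 deeper-zone cells did (1.67%, 0.456 to 4.21). Without thinning the shares were 33.7% and 12.8%. Superficial cells with 5 or more UMIs were rare in both libraries, 22 of 3088 in pulse (0.712%, 0.447 to 1.08) and 8 of 4494 in trace (0.178%, 0.0769 to 0.350), and unthinned they were 3.81% and 4.02%. As a reference, loose connective tissue fibroblasts carried 5 or more in 0 of 63 pulse cells, which at 3 counts of the total allows a share of up to 4.76%. In trace 1 of 387 did (0.258%), a cell that lay in the neutrophil cluster. Whether these fibroblasts divide was not tested. The cells at matched depth had median UMI counts before thinning of 5879 and 6399 in the deeper gate, 3305 and 4602 in the superficial gate and 2735 and 3484 in this reference, pulse first in each pair.

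Of all 151 pulse cells with 5 or more member UMIs, 120 (79.5%) were deeper-zone chondrocytes, a gate that held 21.7% of the cells at this depth, and 22 (14.6%) were superficial. Of the 154 such cells in trace, 38 (24.7%) were B lineage, 38 (24.7%) neutrophil and 13 (8.44%) erythroid cells, 26 were ungated, 8 were superficial and 4 (2.60%) were deeper-zone chondrocytes. The whole-library shares, 3.17% in pulse and 2.13% in trace, were thus made by different cell types. With the shares within gates of trace and the mix of gates of pulse, the share would be 0.793%, and with those of pulse and the mix of trace it would be 2.40%. The 2.40% rests in part on pulse gates of very few cells, with 1 of 2 neutrophil and 1 of 1 myeloid progenitor cells at 5 or more. Gates without pulse cells at this depth, such as B lineage and erythroid, made 1.44% of the trace mix and were counted as 0.

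With a lower bar of 2 or more UMIs, 365 of 1036 deeper-zone pulse cells (35.2%, 32.3 to 38.2) and 28 of 240 trace cells (11.7%, 7.89 to 16.4) carried cycle transcripts, or 60.3% and 39.6% unthinned. Superficial cells did so in 19.8% of pulse (612 of 3088) and 10.4% of trace (467 of 4494), or 33.4% and 30.1% unthinned. The loose connective tissue reference stood at 9.52% (6 of 63) in pulse and 9.04% (35 of 387, 6.38 to 12.4) in trace. Both trace chondrocyte shares thus lay within the interval of the trace reference, and at this bar they are not read as above that reference. In the deeper gate of trace the summed G2/M level was nonetheless 313 CPM, against 95.1 CPM in the reference, and 3 of the 240 cells carried 10 or more member UMIs. The superficial cells held on average under 1 member UMI per 2000 in either library, so no change is read from their shares at this bar.

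**Figure D1:**
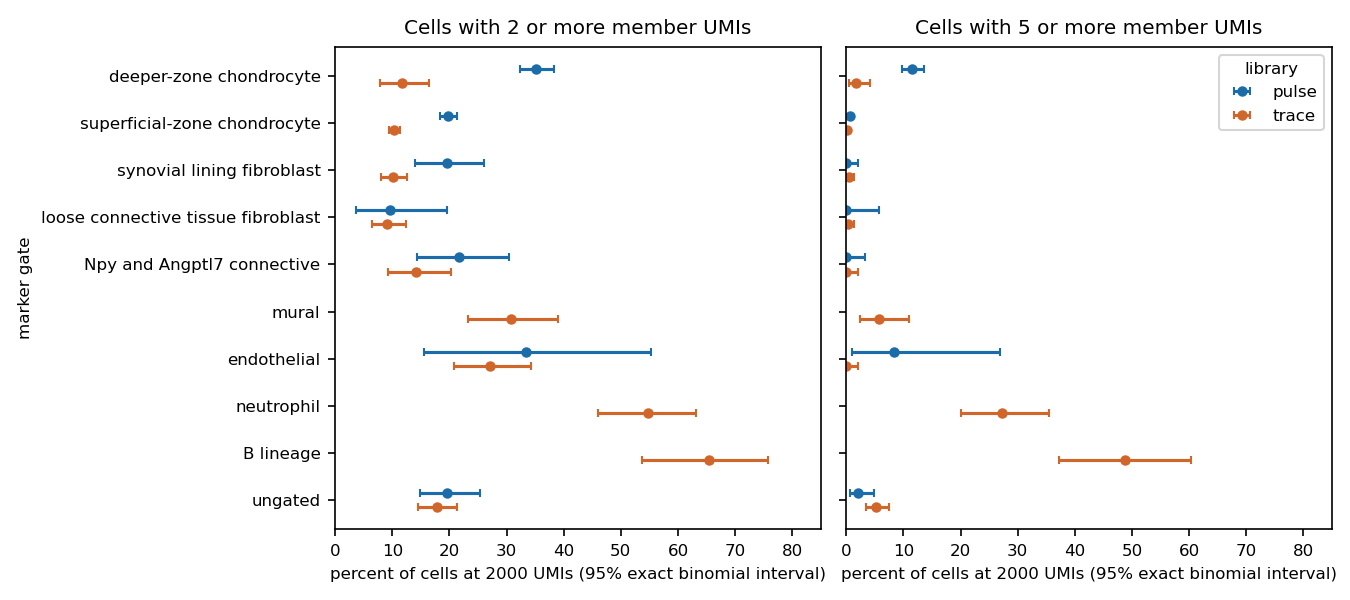
Share of cells with 2 or more (left) and 5 or more (right) UMIs of the 34 genes, in percent of the cells thinned to 2000 UMIs, by marker gate (rows) and library (blue pulse, orange trace). Points are shares, bars exact binomial 95% intervals, gates with under 20 cells at this depth are left out, and the deeper-zone pulse point at 11.6% on the right stands apart from the other cartilage and fibroblast gates, while B lineage cells of trace reach 48.7%.

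The distribution within the deeper-zone pulse gate was wide. Of its 1036 cells, 398 carried no member UMI, 273 carried 1, 245 carried 2 to 4, 57 carried 5 to 9, 49 carried 10 to 19 and 14 carried 20 or more, up to 34. In the 240 deeper-zone trace cells the corresponding numbers were 143, 69, 24, 1, 3 and 0, with a highest sum of 11. The 120 pulse cells with 5 or more held 60.4% of all member UMIs of their gate and a median of 7 different members each. The superficial pulse gate was unlike this, since its 22 cells with 5 or more held 6.5% of the gate's member UMIs. In the deeper-zone trace gate the 4 cells with 5 or more held 22.8% of the gate's member UMIs. By clusters formed without the cycle genes, 119 of the 120 deeper-zone pulse cells lay in deeper-zone clusters, 20 of the 22 superficial pulse cells in superficial clusters, but only 3 of the 8 superficial trace cells did.

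Phases were read from the same thinned cells. A cell was given to S or to G2/M when it held at least 2 UMIs of that list, and to both when it held 2 of each, which says which transcripts it carried and not that it was dividing. In the deeper-zone pulse gate 315 cells had a phase: 51 S only, 199 G2/M only (63.2%, 57.6 to 68.5) and 65 both. In deeper-zone trace cells 22 had a phase, 4 S only, 17 G2/M only (77.3%, 54.6 to 92.2) and 1 both, an interval that holds the pulse value. Superficial cells were divided nearly evenly, with 218 S only, 194 G2/M only and 19 both among 431 in pulse, and 150, 161 and 11 among 322 in trace. The G2/M genes made 72.4% of member UMIs in deeper-zone pulse cells and 73.5% in trace, against 47.1% and 49.2% in superficial cells. The difference in G2/M only cells between the gates depended on the genes counted. Without Hmgb2, Pcna and Slbp it was 57.4% in deeper and 56.6% in superficial pulse cells, and with wider published lists 57.5% and 59.98%.

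**Figure D2:**
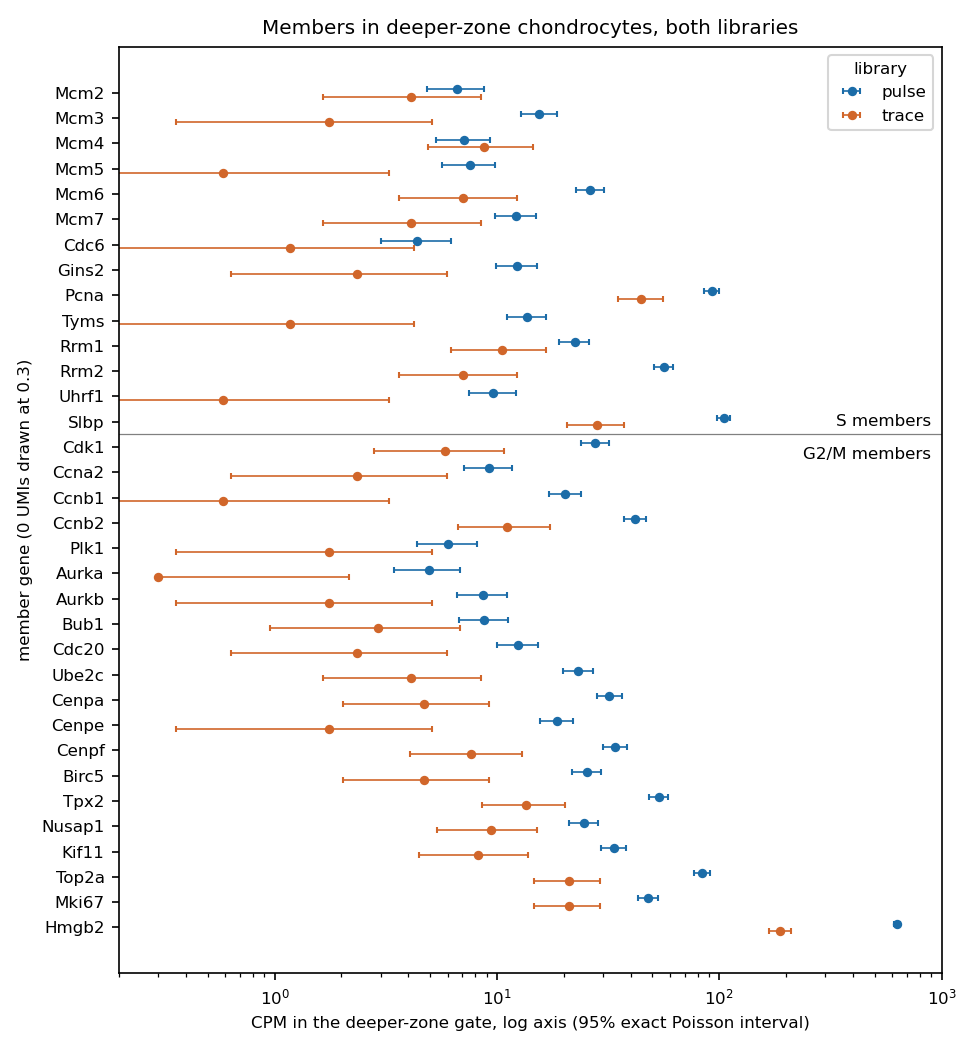
Level of each of the 34 genes in the deeper-zone gate, in CPM of the gate's UMIs (log axis), for pulse (blue) and trace (orange), with exact Poisson 95% intervals. Each gene is a row, a gene at 0 UMIs is drawn at 0.3, and the trace point lies to the left of the pulse point in every row except that of Mcm4.

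Levels were also summed over all cells of a gate. The 14 S genes together stood at 391 CPM (377 to 405) in the deeper-zone gate of pulse and at 122 CPM (106 to 139) in trace, a level 3.21-fold lower (2.79 to 3.71). The 20 G2/M genes stood at 1146 CPM in pulse against 313 CPM in trace, 3.67-fold lower (3.36 to 4.01). In the superficial gate the S genes stood at 217 and 133 CPM, a trace over pulse ratio of 0.614 (0.583 to 0.646), and the G2/M genes at 200 and 131 CPM, a ratio of 0.655 (0.621 to 0.690). Member by member, all 34 had at least 20 UMIs over both libraries in the deeper gate. Of these, 32 of the 34 were lower in trace by 2-fold or more, where 27.2% of all genes with at least 20 UMIs were. The gate held 7292557 UMIs in pulse and 1708353 in trace, so members could pass this filter mainly through pulse, where most were higher. No member was 2-fold higher (3.18% of all genes), and 33 were lower in any amount (75.9% of all genes). In the superficial gate 26 members had at least 20 UMIs over both libraries. Of these 10 were 2-fold lower (18.2% of all genes) and 2, Mcm2 and Mcm3, were 2-fold higher (4.56%). At a stricter floor of a mean of 20 CPM over both libraries, 10 members were tested in the deeper gate and all 10 were 2-fold lower, against 13.3% of 5787 genes, with 2.44% of genes higher; their median log2 ratio was -1.95, and most of them passed the floor mainly through their pulse level. In the superficial gate Slbp alone of 4 tested was lower (7.03% of 5875 genes) and none was higher (2.13%). The median gene of the same tests was itself at a log2 ratio of -0.33 in the deeper gate and -0.22 in the superficial gate. Measured against that median gene, the deeper-zone sums were lower by a log2 ratio of -1.35 for S and -1.54 for G2/M.

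The make-up of the deeper-zone gate was not the same in the 2 libraries. Ibsp, which codes for a bone and hypertrophic cartilage sialoprotein, stood at 403 CPM in pulse against 3704 CPM in trace. The share of the gate's cells with an Ibsp UMI differed little, 25.3% in pulse and 28.7% in trace. Col10a1, the collagen of hypertrophic chondrocytes, stood at 1635 and 238 CPM, and Matn1 at 57.3 and 8.20 CPM. Col10a1 was detected in 36.4% of pulse and 13.6% of trace cells, and Matn1 in 16.6% and 4.15%. S100a8, an abundant neutrophil transcript, stood at 0.274 and 38.0 CPM. These genes were chosen after their values were seen. Among deeper-zone cells without an Ibsp UMI, 118 of 770 pulse cells (15.3%) and 3 of 168 trace cells (1.79%) carried 5 or more member UMIs, and among those with one 2 of 266 (0.752%) and 1 of 72 (1.39%) did. Ibsp was read before thinning, so this split can also depend on depth. What cells with Ibsp add to the difference between the libraries was not tested. Fewer dividing cells within the gate and other kinds of deeper cell in it cannot be told apart with these libraries.

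Among the S genes, the 6 subunits of the MCM helicase, which unwinds DNA at the fork, stood together at 75.1 CPM in deeper-zone pulse cells and 26.3 CPM in trace, 2.85-fold lower (2.10 to 3.96). Mcm6 had 191 UMIs (26.2 CPM) in pulse and 12 (7.02 CPM) in trace, a ratio of 0.268 (0.136 to 0.479). Mcm5 had 55 UMIs (7.54 CPM) against 1 (0.585 CPM), a ratio of 0.0776 (0.00193 to 0.451). Mcm3 went from 15.5 to 1.76 CPM and Mcm7 from 12.2 to 4.10 CPM. Mcm2 (6.58 and 4.10 CPM) and Mcm4 (7.13 and 8.78 CPM, ratio 1.23, 0.644 to 2.22) were the members whose ratios did not pass 2-fold. The subunits were thus uneven, although in the cell they form 1 ring.

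The loading factor Cdc6 and the Gins2 subunit, which help to assemble the active helicase, were low in both libraries. Gins2 had 12.3 CPM in pulse against 2.34 CPM in trace, a ratio of 0.190 (0.0506 to 0.503), and Cdc6 4.39 and 1.17 CPM. Pcna, the sliding clamp of the DNA polymerases and also a repair factor, stood at 92.3 and 44.5 CPM, a ratio of 0.482 (0.375 to 0.612). This was among the smaller differences of the set.

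The 3 genes of nucleotide supply were uneven. Rrm1, the large subunit of ribonucleotide reductase, stood at 22.4 and 10.5 CPM (ratio 0.471, 0.273 to 0.769), whereas its partner Rrm2, whose protein is degraded outside S phase, stood at 56.4 and 7.02 CPM (0.125, 0.0639 to 0.220). Tyms, which makes thymidylate, had 100 UMIs (13.7 CPM) in pulse and 2 (1.17 CPM) in trace, a ratio of 0.0854 (0.0102 to 0.317). Slbp, which binds the stem-loop of histone mRNAs, stood at 105 and 28.1 CPM (0.269, 0.196 to 0.360). Uhrf1, which carries DNA methylation over to new strands, had 70 UMIs (9.60 CPM) against 1 (0.585 CPM), a ratio of 0.0610 (0.00152 to 0.351).

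Among the G2/M genes, Cdk1 and its cyclins, which drive entry into mitosis, stood together at 98.9 CPM in pulse against 19.9 CPM in trace, 4.97-fold lower (3.52 to 7.23). Ccnb1, the main mitotic cyclin, had 148 UMIs (20.3 CPM) in pulse and 1 (0.585 CPM) in trace, a ratio of 0.0288 (0.000725 to 0.163). Ccnb2 stood at 41.7 and 11.1 CPM, a ratio of 0.267 (0.158 to 0.424). Cdk1 itself went from 27.7 to 5.85 CPM and Ccna2 from 9.19 to 2.34 CPM. The ratio of Ccnb1 was the lowest of those of the 33 members with a UMI in trace.

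The mitotic kinases, which act on the spindle and kinetochores, were low in number. Aurkb stood at 8.64 CPM in pulse against 1.76 CPM in trace, a ratio of 0.203 (0.0408 to 0.622). Aurka had 36 UMIs (4.94 CPM) in pulse and 0 in trace, which is at least 2.81-fold lower when trace is set at a floor of 3 UMIs over the gate. Plk1 went from 6.03 to 1.76 CPM and the checkpoint kinase Bub1 from 8.78 to 2.93 CPM. Of the regulators of the anaphase promoting complex, which marks cyclins for destruction, Ube2c stood at 23.2 and 4.10 CPM (0.177, 0.0700 to 0.372) and Cdc20 at 12.5 and 2.34 CPM.

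Centromere and kinetochore genes stood together at 110 CPM in pulse against 18.7 CPM in trace, 5.88-fold lower (4.13 to 8.65), with an interval that overlaps those of the cyclins and kinases above. Cenpa, the centromere's own histone H3, stood at 32.1 and 4.68 CPM (0.146, 0.0623 to 0.292). Cenpe, a kinetochore motor, stood at 18.6 and 1.76 CPM (0.0942, 0.0192 to 0.281). Cenpf and Birc5, a subunit of the chromosomal passenger complex, went from 34 to 7.61 and from 25.4 to 4.68 CPM.

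The spindle genes were 3.60-fold lower in trace (2.72 to 4.84). Tpx2, which nucleates spindle microtubules, stood at 53.5 and 13.5 CPM (0.252, 0.158 to 0.383), Kif11, the motor that pushes the poles apart, at 33.6 and 8.20 CPM (0.244, 0.131 to 0.417), and Nusap1 at 24.5 and 9.37 CPM. Top2a, which untangles sister DNA, stood at 83.5 and 21.1 CPM (0.252, 0.175 to 0.353), and the proliferation marker Mki67 at 47.9 and 21.1 CPM (0.440, 0.303 to 0.622). Hmgb2, a chromatin protein that is also made outside division, stood at 630 and 188 CPM (0.298, 0.266 to 0.334). It alone held more UMIs than all other G2/M members of the gate together in either library.

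Not every member marked the same cells. Each deeper-zone pulse cell with a UMI of Aurka, Aurkb or Bub1 at matched depth (9, 10 and 5 cells) also held 5 or more UMIs of other members. For Cdc20 this was 95% of 20 cells, for Top2a 85.5% of 62 and for Mki67 84.4% of 45. For Hmgb2 it was 17.5% of 434 cells, for Slbp 22.9% of 144, for Mcm6 23.3% of 43, for Pcna 26.8% of 127 and for Mcm7 31.6% of 19. A UMI of these last 5 genes was thus found mostly in cells with few other cycle transcripts.

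Hmgb2, Pcna and Slbp together held 78.1% of the member UMIs of superficial pulse cells and 74.4% of those of trace cells, against 53.8% and 60% in the deeper gate. The other 31 genes stood at 710 CPM in deeper-zone pulse cells and 174 CPM in trace, and at 91.2 and 67.7 CPM in superficial cells. The deeper gate was therefore 7.78-fold above the superficial gate in pulse (7.30 to 8.30) and 2.57-fold above it in trace (2.26 to 2.91) for these 31. At matched depth 4 of the 240 deeper-zone trace cells held 56.5% of their gate's UMIs of these 31. The trace interval takes UMIs as independent and is therefore too narrow. By lists, the deeper gate was 1.80-fold above the superficial gate in pulse for S and 5.73-fold for G2/M. In trace the S sums of both gates lay within counting error of each other (0.915, 0.791 to 1.05), and G2/M was 2.39-fold higher in the deeper gate.

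The superficial gate differed between the libraries in a gene by gene manner. Slbp stood at 97.8 CPM in pulse against 41.4 CPM in trace (ratio 0.423, 0.389 to 0.460), Pcna at 73.5 and 46.4 CPM (0.631, 0.578 to 0.689) and Hmgb2 at 154 and 109 CPM (0.704, 0.664 to 0.747). Without Pcna and Slbp the S sum did not differ beyond counting error (log2 ratio -0.01, -0.15 to 0.14). The mitotic cyclin Ccnb1 had 45 UMIs (3.55 CPM) against 10 (0.408 CPM), a ratio of 0.115 (0.0517 to 0.232). Cenpf (2.05 and 0.489 CPM), Nusap1 (7.56 and 2.69 CPM), Top2a (4.25 and 1.79 CPM) and Mki67 (3.94 and 1.67 CPM) were also more than 2-fold lower. By contrast Mcm2 had 9 UMIs (0.709 CPM) in pulse and 42 (1.71 CPM) in trace (2.42, 1.16 to 5.64), Mcm3 went from 1.81 to 3.75 CPM (2.07, 1.30 to 3.43) and Rrm1 from 2.68 to 4.57 CPM (1.71, 1.15 to 2.58). Mcm3 and Rrm1 were thus lower in trace in the deeper gate and higher in trace in the superficial gate, each beyond counting error, a difference between gates that was not tested over animals.

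**Figure D3:**
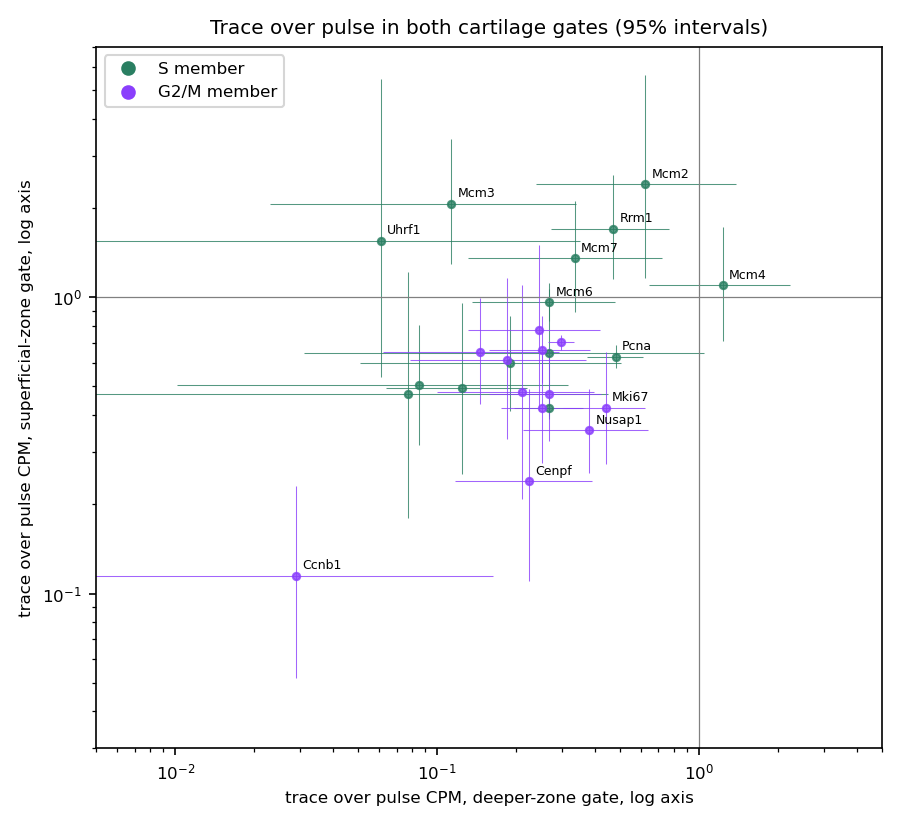
Trace over pulse ratio of each member in the deeper-zone gate (x, log axis) against the superficial gate (y, log axis), green for S and purple for G2/M genes, with exact conditional Poisson 95% intervals. Grey lines mark a ratio of 1, most points lie left of 1 on x and below 1 on y, and Mcm2, Mcm3 and Rrm1 lie above 1 on y with intervals that do not reach 1.

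Mcm6 stood apart from the other helicase subunits in superficial cells. It had 22.2 CPM in pulse against 21.4 CPM in trace, a ratio of 0.962 (0.831 to 1.12), while the mean of the other 5 subunits was 1.69 and 2.41 CPM. Set as a ratio of the same genes in each gate, Mcm6 over the mean of the other 5 was 13.2 (10.5 to 16.6) in superficial pulse and 8.85 (7.66 to 10.2) in superficial trace cells. It was 2.68 (2.23 to 3.20) in deeper-zone pulse cells, 1.16 (0.785 to 1.68) in B lineage and 0.614 (0.236 to 1.35) in neutrophil cells of trace. Superficial cells were not alone in this, with 12.5 (3.61 to 54.6) in connective cells with Npy and Angptl7 of pulse. Synovial lining fibroblasts of trace stood at 3.58 (2.30 to 5.54). In trace it was 1.82 (0.855 to 3.61) in deeper-zone cells and 1.59 (0.805 to 2.96) in loose connective tissue fibroblasts. In trace the intervals of the B lineage, neutrophil, deeper-zone and loose connective tissue gates thus held 1. That of deeper-zone pulse cells did not, and in the superficial gate Mcm6 carried most of the sum.

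**Figure D4:**
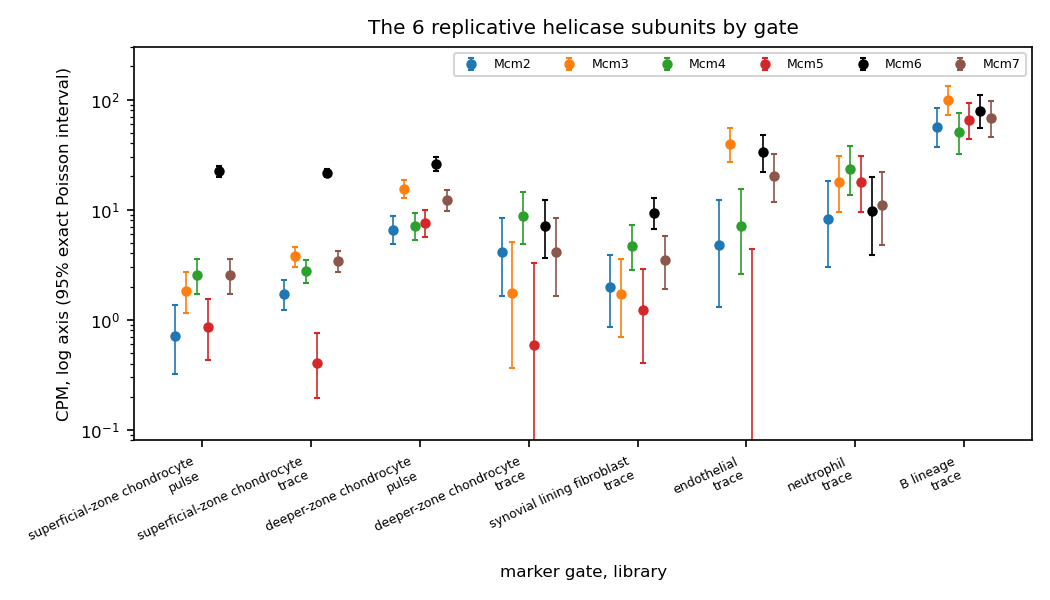
Level of the 6 MCM subunits in CPM (log axis) by marker gate and library, with exact Poisson 95% intervals, Mcm6 in black. In both superficial libraries Mcm6 lies above 20 CPM with every other subunit under 4 CPM, and in B lineage cells of trace the 6 lie close together. Mcm5 of endothelial trace cells has 0 UMIs, so only the upper part of its interval is drawn.

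The other genes of the cycle in deeper-zone cells were read from 7 pathway lists that were set with earlier results of these data known. Lower in trace in any amount were 26 of 27 genes of origin licensing and replication, 9 of 12 of E2F and G1/S control, 5 of 5 of MuvB and FOXM1 control, 11 of 11 of condensin and cohesin, 15 of 15 of kinetochore and spindle checkpoint, 19 of 20 of spindle and cytokinesis and 12 of 13 of mitotic entry and exit. In all 97 of 103 genes were lower, beside 76.3% of all genes with a UMI in the gate. Of the genes at a mean of 20 CPM, 9 of 16 were 2-fold lower, beside 13.3% of all genes, and their median log2 ratio was -1.22, beside -0.33 for all genes. Some of them, such as Rbl1 and Cenpw, passed that floor only through their pulse level. Prc1, which bundles the central spindle, stood at 63.5 and 14 CPM (0.221, 0.140 to 0.333) and Anln, a scaffold of the cleavage ring, at 51.7 and 14 CPM (0.272, 0.172 to 0.411). Incenp, which holds Aurora B at the centromere, stood at 38.1 and 10.5 CPM.

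The condensin subunits Ncapg2 (68.0 and 17.0 CPM, 0.25, 0.165 to 0.363) and Smc4 (149 and 60.3 CPM, 0.406, 0.328 to 0.497) were lower past 2-fold. So were Cenpw of the kinetochore (30.9 and 10.5 CPM), Rbl1, a pocket protein that binds E2F (31.7 and 10.5 CPM), Dut, which clears dUTP (81.2 and 31 CPM), and the kinase subunit Cks2 (71.9 and 32.8 CPM). The cohesin subunit Rad21 stood at 100.4 and 54.4 CPM (0.542, 0.432 to 0.674). Differences under 2-fold were also found for Rbl2 (26.2 and 15.2 CPM) and Lin54 (25.1 and 15.2 CPM), which act in quiescent as well as dividing cells, for E2f3 (34.7 and 25.8 CPM), Bub3 (32.5 and 24.6 CPM) and Ube2s (121 and 97.8 CPM). The genes that were higher in trace were Cdc25a (7.82 and 15.2 CPM), Cdca2 (6.99 and 14 CPM), Pttg1 (13.6 and 24.0 CPM), Fen1 (2.19 and 2.93 CPM), Ccne1 (0 and 1 UMI) and Myb (1 and 2 UMIs), named after their values were seen. In superficial cells 67 of the 103 genes were lower in any amount, near the 65.1% of all genes there, and Dut stood higher in trace, at 27.8 CPM in pulse against 38.0 CPM in trace (1.37, 1.21 to 1.55).

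The 120 deeper-zone pulse cells chosen by their member UMIs also carried more of these other cycle genes, which played no part in choosing them. Summed spindle and cytokinesis genes stood at 2070 CPM in them and 45.6 CPM in the 671 cells of the gate with under 2 member UMIs. Origin licensing genes stood at 1336 and 160 CPM, and kinetochore genes at 1026 and 48.8 CPM. The cells were also larger in RNA, with a median of 10452 UMIs against 5051 before thinning. By doublet score, 5% of them, against 7.60%, were among the top 5% of their library, but their median score was higher, 0.0717 against 0.0461. Scrublet called no cell in either library, so whether doublets were among these 120 cells was not tested. Ibsp stood at 1.56 CPM in them and 605 CPM in the others. The 22 superficial pulse cells had a median of 3227 UMIs, against 3306 in superficial cells with under 2.

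**Figure D5:**
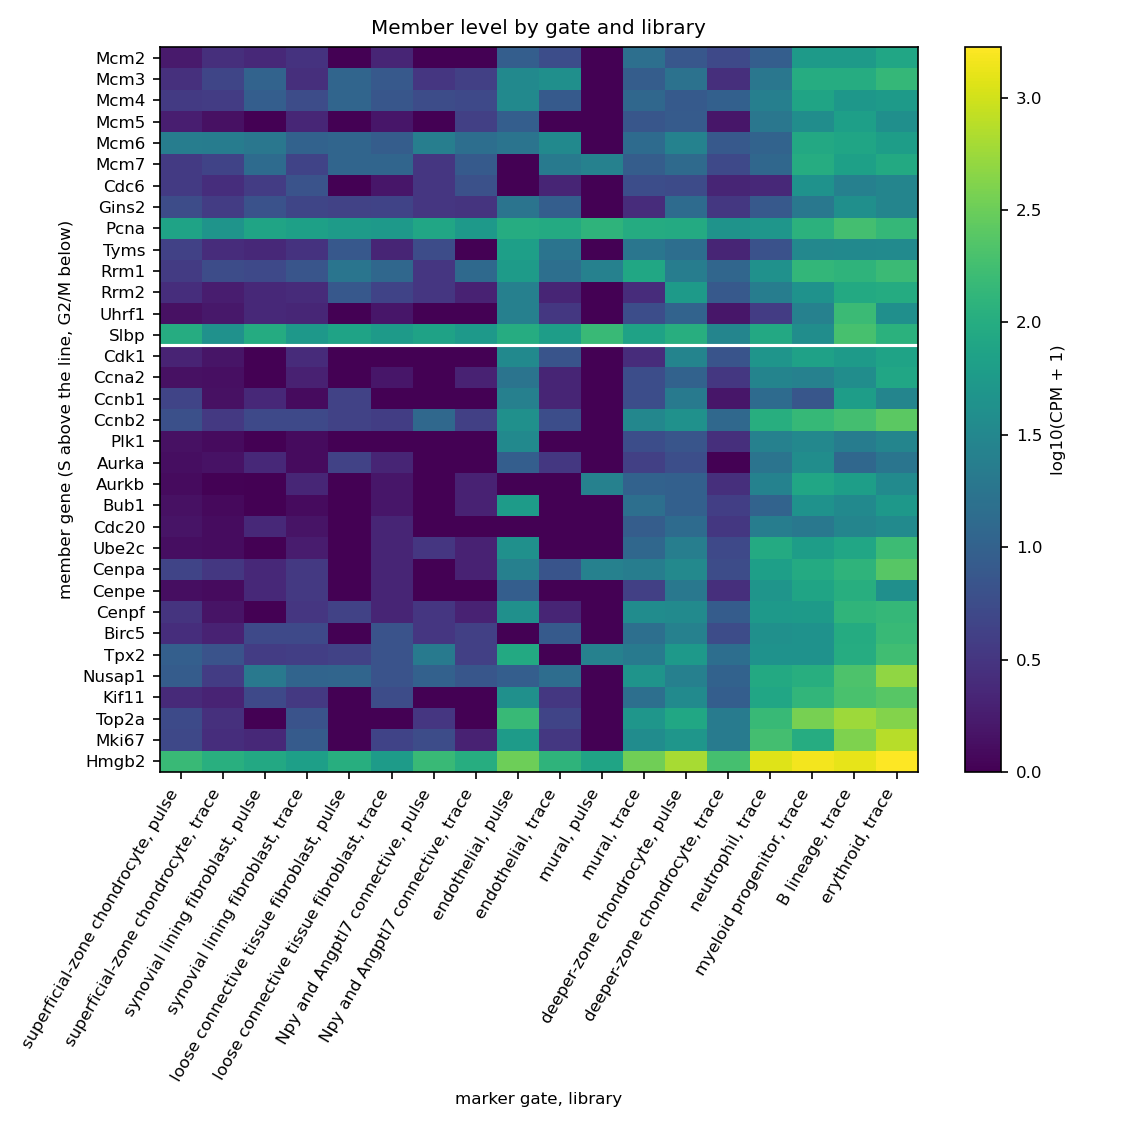
Level of the 34 genes as log10(CPM + 1), from dark (0) to yellow (highest), by marker gate and library (columns), with S genes above the white line and G2/M genes below it. Pcna, Slbp and Hmgb2 are seen in every column, most other G2/M genes are near 0 in superficial and fibroblast columns, and the 4 blood cell columns of trace at the right are the brightest, followed by deeper-zone pulse, endothelial pulse and mural trace cells.

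Blood cells of the trace library carried high G2/M levels. B lineage cells stood at 1253 CPM for S and 3760 CPM for G2/M, and 38 of 78 at matched depth (48.7%, 37.2 to 60.3) carried 5 or more member UMIs. Of the 49 B lineage cells with a phase, 31 (63.3%, 48.3 to 76.6) held both lists. Neutrophil cells stood at 304 and 2311 CPM, and of 73 with a phase 50 held G2/M only, 21 both and 2 S only. Their G2/M genes made 86.9% of member UMIs, against 76.4% in B lineage cells. Hmgb2 weighed heavily in this, since 88 of the 139 neutrophil cells at matched depth held an Hmgb2 UMI, with a median of 0 UMIs of other members. Without Hmgb2, Pcna and Slbp, 34 of these 139 neutrophil cells (24.5%) and 40 of the 78 B lineage cells (51.3%) held 2 or more UMIs. The B lineage and neutrophil gates of pulse held 0 and 3 cells, so the libraries cannot be compared for them. Mural cells, the contractile cells around vessels, carried 5 or more in 8 of 140 trace cells (5.71%, 2.5 to 10.9), and their S and G2/M sums were 337 and 662 CPM. Those 8 cells held a median of 3 different members, and 1 of them lay in the B lineage cluster. Without Hmgb2, Pcna and Slbp, 3 of the 140 mural cells held 5 or more. Endothelial cells stood at 486 CPM for S and 1004 CPM for G2/M in the 40 pulse cells and at 303 and 175 CPM in the 264 trace cells, and 2 of 24 and 0 of 177 (which at 3 counts allows up to 1.69%) carried 5 or more.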

How the data were processed

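The values of both droplet libraries, 1 per group, are UMI counts that the authors deposited without normalization, for called barcodes only (500 UMIs or more). The matrices came from Cell Ranger 7.1.0 per the file headers, whereas the submitters' processing notes name Cell Ranger 3.0.1, STAR, HTSeq, Seurat, DESeq2 and mm10 without roles. Whether intron reads were counted is not given in the sources used here.

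The members and lists were chosen with earlier results of these data known, and the gate limits after seeing the values. Per 10000 UMIs a gate needed 50 UMIs of 5 markers (chondrocytes), 5 of 2 (cells with Npy and Angptl7) or 10 of 3 (others). Of the gates reached, the one with the largest part of its list detected was used, and of the chondrocyte zones only the one with the higher sum competed. Cells were thinned once to 2000 UMIs (seed 1). UMIs of a gate were summed and scaled to its total (CPM), and ratios carry exact conditional Poisson 95% intervals, shares exact Clopper-Pearson ones. Without replicates no test was made, and 2-fold was used as a call. Named genes were, per role, the member with the most UMIs and the one with the largest ratio, and up to 3 genes per pathway list at 20 CPM. Scrublet (scanpy 1.11.5) called 0 cells in either library, so it did not work, and no doublet was removed except in 1 alternative. Alternative classes were 13 Leiden clusters (resolution 0.7, 2000 variable genes, 30 components, 20 neighbours) formed without cycle genes. The 2-fold calls, the ratio intervals and the thinning were tested on simulated data, and the gates, phases, clusters and motif search were not. Scripts ran in Python 3.11.15 with scipy 1.17.1 for intervals, igraph 0.11.9 for clusters, and numpy 2.4.6, anndata 0.12.19, pandas 2.3.3 and matplotlib 3.10.9.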

Additional observations from a re-analysis of the deposited data

Results flagged for a closer look

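Mcm3 and Rrm1 moved in opposite directions in the 2 chondrocyte gates. The trace over pulse ratio of Mcm3 was 2.07 in the superficial gate and 0.113 in the deeper gate. That of Rrm1 was 1.71 in the superficial gate and 0.471 in the deeper gate. All 4 intervals exclude 1, but with 1 library per group the difference between the gates was not tested.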

How the results depend on the processing

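With 1 library per group no library could be left out, and No paired analysis was possible because each group has 1 library. No trace over pulse ratio of the sums changed its direction under the alternatives run, nor did that of a member that was rerun. Single members were rerun only in the deeper gate, and only those named per role. Their ratios in the superficial gate were not rerun. Of the values of the shares, phase mixes, sums and counts, 79 of 143 stayed within their counting interval (counts within 1.5 times). Values are given in the order pulse deeper, trace deeper, pulse superficial and trace superficial. The share with cycle transcripts was 21.7%, 5%, 6.90% and 2.65% at 3 or more UMIs and 11.6%, 1.67%, 0.712% and 0.178% at 5 or more. It was 18.8%, 5.02%, 7.14% and 3.60% at 1000 UMIs per cell, and 63.8%, 30.7%, 45.5% and 26.0% at 4000, as thinning and bar set it by construction. Without Hmgb2, Pcna and Slbp it was 12.5%, 2.5%, 2.07% and 1.25%, and with wider published lists 76.0%, 57.9%, 70.7% and 61.2%, where the cause was not tested. The deeper pulse share was 44.0% with cluster classes and, in an alternative chosen after seeing the data, 41.4% in cells without an Ibsp UMI. The G2/M only part of cells in a phase was 68.9% (deeper pulse), 54.7% and 58.8% (superficial) at 3 or more UMIs, and 75.5%, 100% and 75.0% (deeper pulse, deeper trace, superficial trace) at 5 or more. It was 53.4% in deeper pulse at 4000 UMIs, and in superficial trace 38.6% at 1000 UMIs and 43.8% with another seed. Without the 3 genes it was 57.4%, 100%, 56.6% and 21.7%, and with wider lists 57.5% (deeper pulse), 59.98% and 64.7% (superficial). Each value of 100% stands for 4 of 4 deeper trace cells.

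Some orders between these shares did change. The trace share with cycle transcripts was higher in the deeper than in the superficial gate as reported and lower with wider lists. The G2/M only part in pulse was higher in the deeper gate as reported and lower with wider lists. In superficial cells it was lower in pulse than in trace as reported (45.0% and 50%), and higher in pulse with another seed (47.1% and 43.8%), at 1000 UMIs (45.7% and 38.6%) and without the 3 genes.

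The log2 trace over pulse ratios of the S and G2/M sums were -1.35 and -1.54 (deeper) and -0.48 and -0.39 (superficial) with the median gene set to 1. Without ribosomal RNA-associated transcripts in the totals, G2/M was -1.74 in the deeper gate, and S and G2/M were -0.58 and -0.49 in the superficial gate. Without the 3 genes they were -1.98 and -2.05 (deeper) and -0.0072 and -1.03 (superficial), and with wider lists -1.21, -1.35, -0.32 and -0.26 in the same order. With clusters the deeper G2/M ratio was -2.03, and in cells without Ibsp S was -2.09 and G2/M -2.32. Members lower by 2-fold were 28 of 30 (20.4% of all genes) at a mean of 5 CPM and 32 of 34 (43.5%) with no filter in the deeper gate, and 2 and 11 (10.5% and 28.1%) in the superficial gate. Of the single members rerun in the deeper gate, Hmgb2 moved from -1.75 to -1.41 with the median gene set to 1, and 107 other values did not move. The number of cells limits the deeper trace gate, with 240 cells at 2000 UMIs and 742 member UMIs in all.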

Other observations

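Neutrophil cells of the trace library differed in maturity markers with their cycle transcripts. Camp, a granule gene of immature neutrophils, stood at 37467 CPM in the 38 cells with 5 or more member UMIs and 10629 CPM in the 63 with under 2. Ngp, another granule gene of immature cells, stood at 14464 and 7845 CPM. Genes of mature neutrophils went the other way, with Cxcr2 at 35.1 and 205 CPM, Mmp8 at 286 and 929 CPM and Retnlg at 1797 and 6319 CPM. Ltf (3941 and 2875 CPM) and S100a8 (94020 and 56006 CPM) were also higher in the cells with 5 or more. Cells rich in cycle transcripts thus carried more of the immature and less of the mature transcripts named. The cells with under 2 had fewer UMIs, a median of 2848 against 4565.5. They also held more cartilage RNA, with Prg4 at 4210 against 131 CPM, and the effect of both on these levels was not tested. The genes were chosen after their values were seen, and all cells come from 1 library.

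In mural cells of the same library the subunits of ribonucleotide reductase were uneven, with 52 UMIs of Rrm1 (81.5 CPM) and 1 of Rrm2 (1.57 CPM). In B lineage cells the same genes had 57 UMIs (125 CPM) and 41 (89.6 CPM), and in deeper-zone pulse cells 163 and 411.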
